A study of Mus musculus with 16 samples.

Results

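Natural killer (NK) cells of the lungs were compared with NK cells of the axillary lymph nodes (LN) that drain the tumour, in mice given PBS. The comparison used 8 of the 16 deposited RNA-seq libraries, namely those labelled untreated: 4 from LN and 4 from lung. All 16 libraries came from FVB/N mice of the genotype Cdh1F/F;Trp53F/F;Foxp3GFP-DTR, with floxed alleles of the genes for E-cadherin and p53 and a Foxp3 allele that carries GFP and the diphtheria toxin receptor. Every mouse bore an orthotopically transplanted KEP mammary tumour of 100 mm2. The 8 libraries compared here came from mice given PBS at T = 0 and T = 7 (the labels give no unit of time), and the other 8 libraries, 4 per tissue, from mice given 25 µg of diphtheria toxin (DT) at the same times, a toxin that kills cells bearing its receptor. No age or sex of the mice is stated in the labels. The 4 libraries of a group are described as biological replicates, and the labels do not tie a lung library to an LN library of the same mouse. Each library was made from 5 to 10 K live cells that were CD45+, CD3-, NKp46+ and DX5+, with a Smart-seq2 protocol. Lungs were digested in Liberase at 100 µg/mL for 30 minutes at 37 °C and their red cells were lysed, and no such step is named for LN. Tissue and preparation therefore cannot be told apart in any difference between lung and LN given here.

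NK cells are innate lymphocytes that kill target cells with perforin and granzymes and secrete interferon gamma and chemokines. Less mature CD27+ cells are common in lymph nodes and keep the transcription factor TCF1, while mature CD27-, CD11b+, KLRG1+ cells dominate in blood and lung and hold more cytolytic protein. Immediate early genes, a further group described here, are switched on within minutes of a signal or of cell stress, before any new protein is needed.

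The 8 libraries held 3929560 to 10744934 counts on genes, with the lowest total in lung replicate 2 and the highest in lung replicate 1. Across the 12113 genes tested, the first principal component carried 42.5% of the variance and placed the 4 LN libraries between -83.0 and -46.1 and the 4 lung libraries between 43.2 and 68.2. Pearson correlations of log2 CPM, across genes, were 0.893 to 0.940 between LN libraries, 0.861 to 0.947 between lung libraries and 0.782 to 0.895 between a lung and an LN library. The genes behind the sort gate were present in every library. Ncr1, which encodes NKp46, was at 6087, 5196, 6085 and 6090 CPM in the LN libraries and 4715, 3817, 4821 and 5472 CPM in the lung libraries, with a log2 fold change of -0.32 that did not pass the test (adjusted p = 0.245). Itga2, which encodes DX5, and Ptprc, which encodes CD45, did not pass either, at 0.60 and 0.26, and Itga2 passed when lung replicate 2 was left out. LN replicate 3 and lung replicate 2 stood apart in genes of other cells. LN replicate 3 held 145 CPM of a list of 13 mammary epithelial and tumour genes, against at most 2.27 CPM in each of the other 7 libraries, and lung replicate 2 held 5540 CPM of monocyte and macrophage genes (without Nr4a1 and Ccr2, which NK cells use) against 404 to 1315 CPM in the other lung libraries. Counts without these 2 libraries are given below for all genes and for some of the gene lists. For the other lists they are not given. Of 6 library measures, the share of counts on the 50 most abundant genes differed most, at 16.3 to 19.0% in LN and 19.4 to 21.4% in lung (exact two-sided permutation test, p = 0.0286, the smallest that 4 against 4 allows; adjusted p = 0.172 over the 6 measures).

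In lung NK cells 828 genes were higher than in LN NK cells and 597 were lower (edgeR quasi-likelihood test, Benjamini-Hochberg adjusted p under 0.05), which is 6.84% and 4.93% of the 12113 genes tested. The 4 lung libraries lay wholly above the 4 LN libraries for 1225 genes (10.1%) and wholly below them for 1196 genes (9.87%). The median log2 fold change of all tested genes, lung minus LN, was 0.01, and 50.6% of them lay above 0. When libraries were scaled by their total counts alone, the median became -0.198 and the calls became 617 higher (5.09%) and 1151 lower (9.50%), so that higher genes made up 34.9% of the calls in place of 58.1%. Without LN replicate 3 and lung replicate 2, 545 genes were higher and 265 lower (4.46% and 2.17% of those tested). Left out alone, LN replicate 3 gave 661 and 374 genes, LN replicate 4 gave 549 and 342, and lung replicate 3 gave 552 and 301. A model over all 16 libraries, whose biological coefficient of variation was 0.621 against 0.426, called 377 higher (2.70%) and 126 lower (0.904%). Genes called in the 8 libraries and named below that this model did not call included Calca, Ccr7, Cd247, Cd3e, Cd69, Cd9, Crtc3, Fasl, Gzma, H2-Eb1, Ifit3, Il12rb2, Kcnj8, Klra1, Lef1, Nfil3, Pf4, Prf1, Ptger2, Rps7, S100a8, Skil, Stmn1, Tnfsf10 and Tox. Because these are bulk libraries, fewer cells of a type and less RNA per cell cannot be told apart. The genes of smallest p included Cdkn1a, Nr4a2 and Nr4a1 among the higher and Ltb, Cxcr3 and Tcf7 among the lower. A value given below after a gene without its levels is its log2 fold change, lung minus LN.

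**Figure D1:**
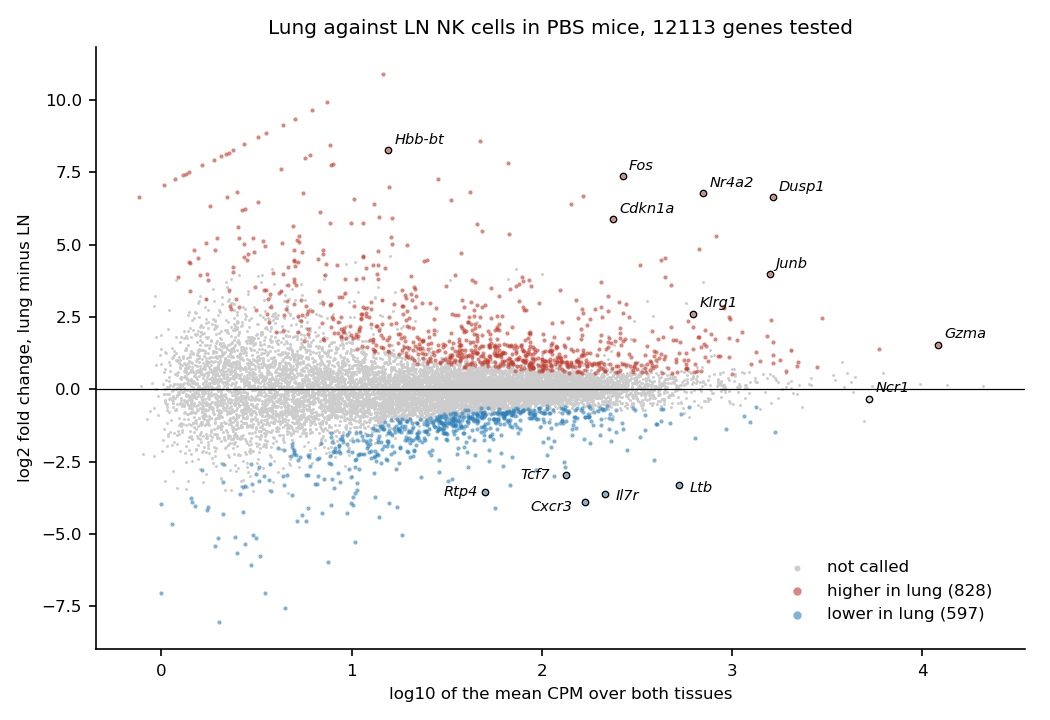
Log2 fold change of lung over LN NK cells (y axis) against the log10 of the mean CPM over both tissues (x axis) for the 12113 genes tested in 8 PBS libraries, with called genes in colour and named genes labelled. The 828 higher genes include Fos and Nr4a2 near 7 on the log2 scale, and the 597 lower genes include Ltb, Tcf7 and Cxcr3 near or beyond -3.

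Early response genes had wide differences. Among them are the NR4A nuclear receptors, transcription factors induced within minutes of antigen receptor, calcium or cyclic AMP signals. Nr4a2 was at 16.3, 16, 7.28 and 11.2 CPM in the LN libraries and 1463, 1052, 1698 and 1402 CPM in the lung libraries (values run from replicate 1 to 4 here and below), with a log2 fold change of 6.79 ± 0.32 (SE, n = 4 per tissue; edgeR quasi-likelihood test here and below, adjusted p = 4.04e-07). Nr4a1 was at 34.1, 39.0, 55.3 and 33.6 CPM in the LN libraries and 2046, 1323, 1904 and 1139 CPM in the lung libraries (log2 fold change 5.31 ± 0.28, adjusted p = 1.06e-06). Nr4a3 was at 9.96, 13.7, 5.82 and 14.7 CPM in the LN libraries and 104, 181, 135 and 173 CPM in the lung libraries (log2 fold change 3.74 ± 0.32, adjusted p = 2.56e-05). For each of the 3 receptors every lung library lay above every LN library. Fos, a subunit of the AP-1 transcription factor, was at 0, 5.08, 4.49 and 3.44 CPM in the LN libraries and 842, 652, 287 and 336 CPM in the lung libraries (log2 fold change 7.36 ± 0.74, adjusted p = 0.000112). Dusp1, a phosphatase that switches off MAP kinases, was at 61.2, 23.2, 23.2 and 23.3 CPM in the LN libraries and 6233, 1913, 2995 and 1832 CPM in the lung libraries (log2 fold change 6.63 ± 0.54, adjusted p = 2.27e-05). LN replicate 1 was the highest of the LN libraries for Dusp1, and it was still far below the lowest lung library.

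The stretch of 250 bases before the start of each of these 5 genes is printed below because 3 of them are among the few promoters with 4 copies of the core letters of the cyclic AMP response element (CRE), the site bound by CREB. The sequences are from RefSeq (GRCm38.p6), 5′ to 3′ on the gene's strand, and capitals mark TGACG on either strand (read as CGTCA on the other).
Nr4a1 (chr15:101266596-101266845, plus strand): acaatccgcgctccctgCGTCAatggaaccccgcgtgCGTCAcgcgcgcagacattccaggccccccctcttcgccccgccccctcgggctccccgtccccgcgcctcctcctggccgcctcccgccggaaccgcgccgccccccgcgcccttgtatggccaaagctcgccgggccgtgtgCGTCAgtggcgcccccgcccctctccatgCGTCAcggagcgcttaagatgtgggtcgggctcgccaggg
Nr4a2 (chr2:57124004-57124253, minus strand): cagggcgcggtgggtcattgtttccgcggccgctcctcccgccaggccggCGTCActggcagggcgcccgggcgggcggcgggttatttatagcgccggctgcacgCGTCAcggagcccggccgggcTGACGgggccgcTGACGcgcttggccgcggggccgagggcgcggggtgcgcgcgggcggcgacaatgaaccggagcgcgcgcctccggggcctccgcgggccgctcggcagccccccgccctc
Nr4a3 (chr4:48045055-48045304, plus strand): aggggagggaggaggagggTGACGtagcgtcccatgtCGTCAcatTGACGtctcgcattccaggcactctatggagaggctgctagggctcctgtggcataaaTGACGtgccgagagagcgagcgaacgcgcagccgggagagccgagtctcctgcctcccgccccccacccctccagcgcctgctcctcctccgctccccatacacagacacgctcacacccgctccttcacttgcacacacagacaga
Fos (chr12:85473640-85473889, plus strand): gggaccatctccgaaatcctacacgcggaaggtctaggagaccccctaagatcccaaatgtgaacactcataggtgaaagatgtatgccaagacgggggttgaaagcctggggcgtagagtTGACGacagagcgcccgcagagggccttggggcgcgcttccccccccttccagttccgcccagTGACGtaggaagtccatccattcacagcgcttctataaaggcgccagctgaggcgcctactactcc
Dusp1 (chr17:26508473-26508722, minus strand): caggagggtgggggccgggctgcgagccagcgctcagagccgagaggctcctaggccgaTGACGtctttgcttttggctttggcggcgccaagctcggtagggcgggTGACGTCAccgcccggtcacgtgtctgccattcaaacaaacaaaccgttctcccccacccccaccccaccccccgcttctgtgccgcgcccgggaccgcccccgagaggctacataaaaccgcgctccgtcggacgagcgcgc

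Promoters were found for 33 of the 40 tested members of the immediate early list, for 615 of the higher and 439 of the lower genes, and for 8673 of all genes tested. TGACG stood in 17 of the 33 (51.5%), in 28.7% of the tested genes' promoters, in 30.7% of those of higher genes, in 22.1% of those of lower genes and in 17.9% of all 27025 promoters of that length. At least 4 matches stood in 3 of the 33, Nr4a1, Nr4a2 and Nr4a3, and in 37 of the 8673 (0.427%). The full palindrome TGACGTCA, which holds TGACG on both strands, stood in 3 of the 33 (Btg2, Dusp1 and Ppp1r15a) and in 2.93% of the tested genes' promoters. Matches to the AP-1 letters TGANTCA stood in 2 of the 33 (6.06%) and in 4.07% of the tested genes' promoters. These are matches of letters in a short window and were not measured as binding sites.

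**Figure D2:**
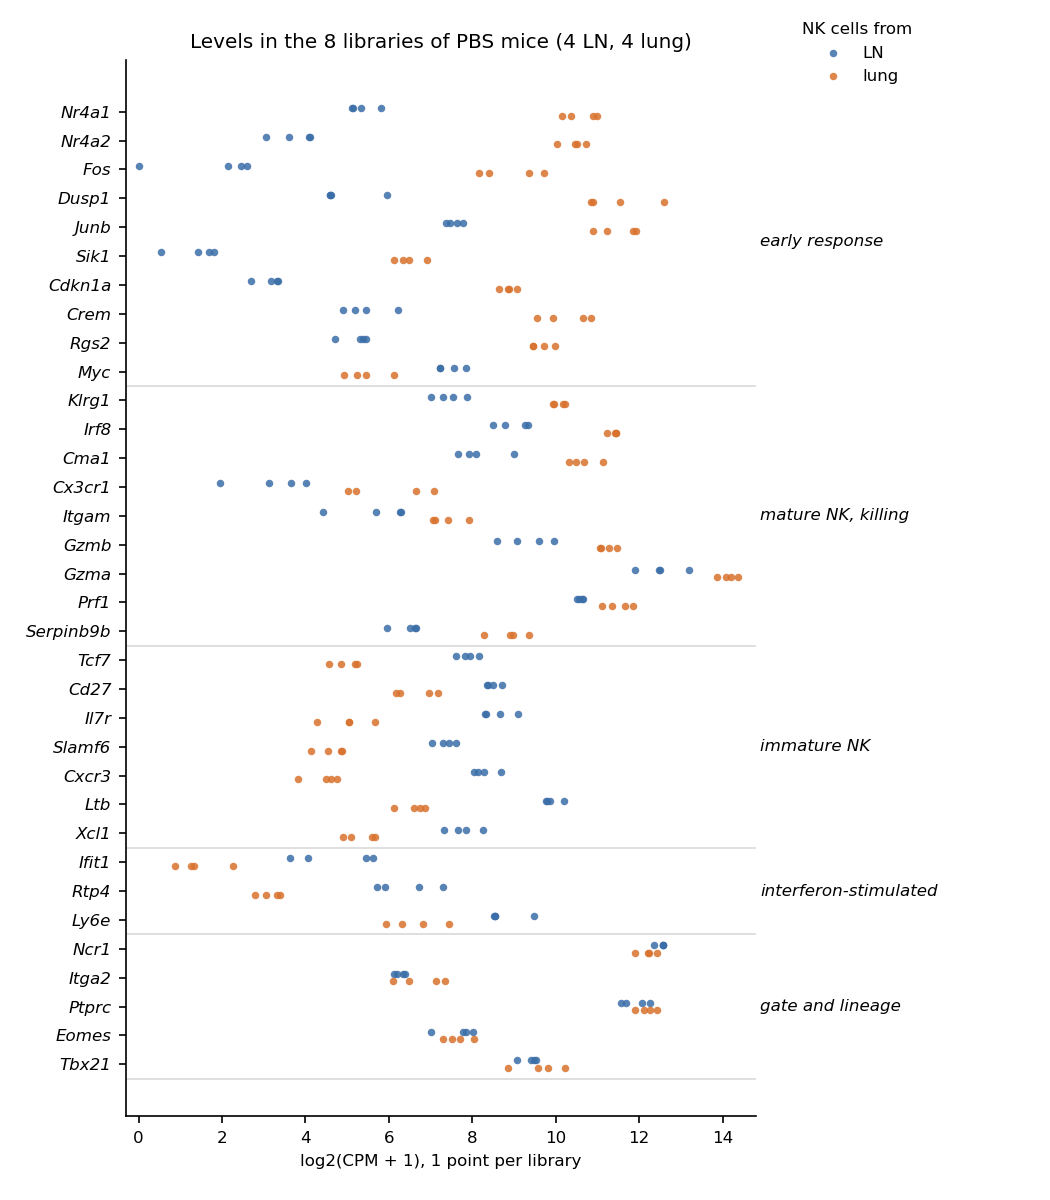
Levels as log2(CPM + 1) (x axis) of named genes (rows, grouped by role) in the 8 PBS libraries, with 1 point per library, blue for LN and orange for lung. For Nr4a2, Fos and Dusp1 all 4 lung points lie above all 4 LN points, and for Ltb, Tcf7 and Cxcr3 all 4 lie below.

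Of the 40 tested members of the immediate early and stress list, 32 were higher in lung and 1 was lower, with a median log2 fold change of 2.64 against 0.01 for all genes. Without LN replicate 3 and lung replicate 2 the counts were 29 and 1. Junb, another AP-1 subunit, was at 217, 199, 175 and 165 CPM in the LN libraries and 3724, 3877, 2395 and 1886 CPM in the lung libraries (log2 fold change 3.97 ± 0.26, adjusted p = 5.28e-06). Rgs2, which shortens G protein signals, was at 25.0, 40.9, 43.1 and 38.4 CPM in the LN libraries and 1019, 835, 696 and 698 CPM in the lung libraries (log2 fold change 4.46 ± 0.24, adjusted p = 1.06e-06). Crem, a cyclic AMP responsive repressor, was at 73.1, 42.9, 29.0 and 35.6 CPM in the LN libraries and 749, 973, 1848 and 1599 CPM in the lung libraries (log2 fold change 4.84 ± 0.39, adjusted p = 2.12e-05). Lung replicates 3 and 4 held the most Crem RNA and LN replicate 1 the most among LN, with no overlap of the tissues. Sik1, a kinase induced by cyclic AMP that restrains CREB coactivators, reached 5.70 on the log2 scale, the AP-1 and ATF members Fosb, Atf3 and Jun 7.00, 5.47 and 3.64, Egr1 3.71, and Tnfaip3, the inhibitor of NF-kB signalling, 3.87. Myc, the driver of cell growth and a member of the same list, went the other way. It was at 148, 149, 231 and 189 CPM in the LN libraries and 69.1, 36.8, 29.6 and 42.8 CPM in the lung libraries (log2 fold change -2.0 ± 0.27, adjusted p = 0.000904), and all 4 LN libraries lay above all 4 lung libraries.

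Cdkn1a, which encodes the cell cycle inhibitor p21, had the smallest p of all genes. It was at 7.97, 8.98, 9.22 and 5.43 CPM in the LN libraries and 396, 539, 462 and 466 CPM in the lung libraries (log2 fold change 5.88 ± 0.24, adjusted p = 1.53e-07), without overlap and with a narrow spread in both tissues (chromosome 17, 29090979 to 29100722, GRCm38). Among cell cycle genes as a whole, 2 of 36 (5.56%) were higher (Pcna 1.17, Stmn1 0.95) and 0 lower, with a median of 0.35. Over all genes tested, 6.84% were higher and 4.93% lower, so the share of this list was near that of all genes. Without LN replicate 3 and lung replicate 2 together, 5 were higher and 0 lower. Of 28 genes responsive to or acting in cyclic AMP signalling, a list put together after the values had been seen and overlapping the early response list, 13 were higher and 2 lower (Ptger2, a prostaglandin E2 receptor, -2.74, and the CREB coactivator Crtc3 -0.65, whose call was lost in 7 of the 8 fits that left out a library), with a median of 0.92. Its higher members outside the early genes included the phosphodiesterases Pde4b (1.67) and Pde3b (1.21), which break cyclic AMP down. Of 13 glucocorticoid-induced genes, a list likewise chosen after the values, 8 were higher and 0 lower (1 lower at an unadjusted p under 0.05 with edgeR, 0 by DESeq2), with a median of 1.55. This list also overlaps the early response list, and its largest value was that of Dusp1 (6.63). Other higher members were the kinase Sgk1 (2.84) and the transcription factor Klf9 (2.41).

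Heat shock genes, which encode protein-folding chaperones, were higher for 8 of 18 members and lower for 0, with a median of 1.30, and 4 of 18 were called higher without LN replicate 3 and lung replicate 2 and 12 without lung replicate 4. Hspa1a was at 0.105, 2.01, 0.121 and 0.111 CPM in the LN libraries and 218, 288, 18.4 and 5.93 CPM in the lung libraries (log2 fold change 7.81 ± 1.56, adjusted p = 0.0146), with lung replicates 1 and 2 far above replicates 3 and 4. It was not called by limma-voom or with no filter on low counts. Hspa1a and Hspa1b are near-identical copies, and their counts cannot be assigned to either with certainty. Hspa8, the constitutive chaperone, was higher by 1.62 and Hspa5, the chaperone of the endoplasmic reticulum, by 1.30. Hspa8 lost its call without LN replicate 3 and lung replicate 2 together (adjusted p = 0.0531).

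Genes of mature CD11b+ NK cells were higher in lung for 13 of 24 tested members and lower for 1, the potassium channel gene Kcnj8 (-2.13, lost in 6 of the 8 fits that left out a library), with a median of 0.96. Without LN replicate 3 and lung replicate 2, 11 were higher and 0 lower. Klrg1, an inhibitory receptor for cadherins that marks late maturation, was at 157, 234, 127 and 186 CPM in the LN libraries and 1186, 1155, 998 and 981 CPM in the lung libraries (log2 fold change 2.62 ± 0.21, adjusted p = 2.21e-05). Irf8, a transcription factor, was at 615, 650.0, 358 and 438 CPM in the LN libraries and 2761, 2774, 2776 and 2416 CPM in the lung libraries (log2 fold change 2.38 ± 0.21, adjusted p = 3.93e-05). Both genes were at similar levels among the lung libraries and had no overlap with LN. Cx3cr1, the fractalkine receptor of the most mature cells, was at 15.2, 7.68, 11.7 and 2.88 CPM in the LN libraries and 99.3, 135, 31.3 and 36.2 CPM in the lung libraries (log2 fold change 3.00 ± 0.56, adjusted p = 0.00579), with lung replicates 1 and 2 above replicates 3 and 4. Monocytes also express Cx3cr1, and monocyte and macrophage genes were most abundant in the same 2 lung libraries, a match whose part in the result was not tested. Itgam, which encodes CD11b, was higher by 1.61 and Zeb2, a repressor needed for terminal maturation, by 1.38. The receptor gene S1pr5 (0.44, adjusted p = 0.315) and the transcription factor gene Klf2 (0.52, adjusted p = 0.478) did not pass. The 2 T-box factors of the lineage did not pass either, with Tbx21 (T-bet) at 0.31 and Eomes at -0.05, whose sign turned when LN replicate 2, lung replicate 3 or lung replicate 4 was left out.

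Cytotoxic genes were higher for 10 of 21 members and lower for 2, with a median of 0.56. Without LN replicate 3 and lung replicate 2 together, 9 were higher and 3 lower. Gzma, the most abundant granzyme here, was at 5765, 9370, 3826 and 5717 CPM in the LN libraries and 14860, 21180, 17340 and 18750 CPM in the lung libraries (log2 fold change 1.55 ± 0.25, adjusted p = 0.00267). Gzmb was at 769.5, 986, 388 and 533 CPM in the LN libraries and 2836, 2488, 2165 and 2127 CPM in the lung libraries (log2 fold change 1.85 ± 0.27, adjusted p = 0.00131). Prf1, which encodes perforin, was at 1623, 1582, 1451 and 1496 CPM in the LN libraries and 3718, 2619, 3234 and 2208 CPM in the lung libraries (log2 fold change 0.94 ± 0.19, adjusted p = 0.00805). All 3 lay without overlap between the tissues, and in the model over all 16 libraries the calls of Gzma and Prf1 were lost (adjusted p = 0.0632 and 0.427), with 5 members higher and 1 lower in that model. The granzyme inhibitors Serpinb9b and Serpinb9 were higher by 2.49 and 2.47, and the death ligand Fasl by 1.78. Another death ligand, Tnfsf10 (TRAIL), was lower, at -2.55, and granzyme M (Gzmm) at -1.66. In the 16-library model the calls of Fasl and Tnfsf10 were also lost (adjusted p = 0.0521 and 0.224).

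Genes of CD27+ or less mature NK cells were lower in lung for 16 of 22 members and higher for 0 (1 at an unadjusted p under 0.05 with edgeR, 1 by DESeq2), with a median of -1.49, and 13 were lower without LN replicate 3 and lung replicate 2. Tcf7, which encodes TCF1, was at 193, 245, 226 and 285 CPM in the LN libraries and 36.6, 35.7, 27.7 and 22.7 CPM in the lung libraries (log2 fold change -2.95 ± 0.22, adjusted p = 1.13e-05). Ltb, which encodes lymphotoxin beta, a ligand that shapes lymphoid tissue, was at 883, 927, 1173 and 871 CPM in the LN libraries and 107, 117, 95.8 and 68.3 CPM in the lung libraries (log2 fold change -3.32 ± 0.22, adjusted p = 5.18e-06). Il7r, the interleukin 7 receptor, was at 543, 317, 322 and 406 CPM in the LN libraries and 32.2, 49.7, 18.3 and 31.8 CPM in the lung libraries (log2 fold change -3.60 ± 0.31, adjusted p = 2.73e-05). The tissues did not overlap for any of the 3. Cd27 itself was lower, at -1.79, the SLAM family receptor Slamf6 at -2.77 and the stem cell factor receptor Kit at -2.49.

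**Figure D3:**
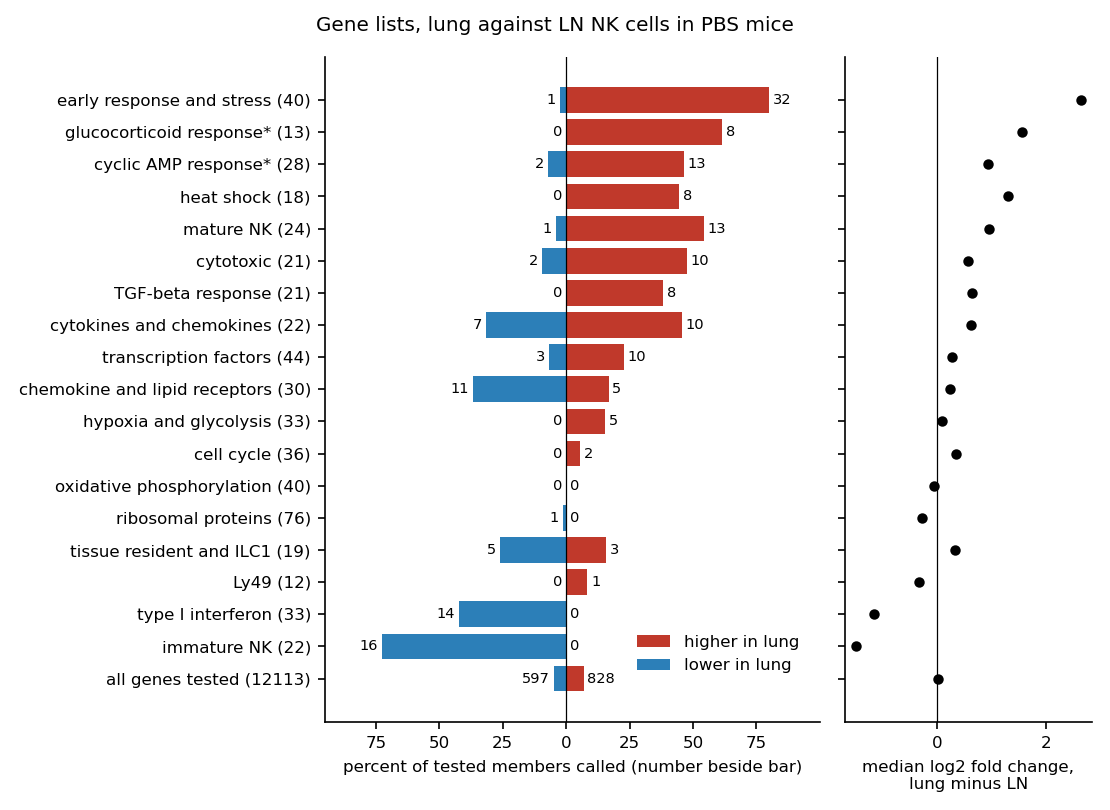
Left, the percent of tested members of each gene list (rows, with the number tested) that were called higher (red) or lower (blue) in lung, with their number beside the bar; right, the median log2 fold change of the list. Asterisks mark lists chosen after the values had been seen. The median is 2.64 for the immediate early list, 0.96 for the mature list, -1.49 for the immature list and -1.16 for the type I interferon list.

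Among 30 receptors for chemokines and lipids, which steer cells between blood and tissue, 5 were higher and 11 lower, with a median of 0.23 that became -0.10 among members of at least 5 CPM. Only 3 were higher without LN replicate 1, LN replicate 4, lung replicate 1 or lung replicate 2. Without LN replicate 3 and lung replicate 2 together, 4 were higher and 9 lower. Cxcr3, a receptor for interferon-induced chemokines, was at 280.2, 262, 411 and 309.5 CPM in the LN libraries and 25.9, 21.6, 23.3 and 13.1 CPM in the lung libraries (log2 fold change -3.91 ± 0.26, adjusted p = 5.28e-06). Cxcr6, a receptor of liver and tissue-resident lymphocytes, was lower, at -4.10, and the lymph node homing receptor Ccr7 at -2.0. S1pr1, the receptor with which lymphocytes leave lymph nodes, was lower, at -2.10. Cx3cr1, described above, was among the higher. Of 30 adhesion genes 6 were higher and 3 lower, with Itgam and Cd9, a tetraspanin (0.96), among the higher. These counts became 3 and 1 without LN replicate 4, 4 and 1 without lung replicate 1, 7 and 1 without LN replicate 3, and 2 and 1 in the 16-library model, where Cd9 lost its call (adjusted p = 0.0518).

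Secreted factors split. Of 22 cytokine and chemokine genes, 10 were higher and 7 lower, and the counts did not change without LN replicate 3 and lung replicate 2. Ccl4, an inflammatory chemokine, was at 116, 369, 155 and 271 CPM in the LN libraries and 1956, 1673, 1228 and 1513 CPM in the lung libraries (log2 fold change 2.81 ± 0.34, adjusted p = 0.00042). Ifng, which encodes interferon gamma, was at 44.7, 76.6, 51.8 and 69.5 CPM in the LN libraries and 456, 249, 170.0 and 269.6 CPM in the lung libraries (log2 fold change 2.24 ± 0.30, adjusted p = 0.000785). Both were above every LN library in every lung library. Ccl3 and Ccl5 were higher by 1.77 and 1.41, and Tgfb1 by 2.01. Xcl1, the chemokine for cross-presenting dendritic cells, was lower, at -2.49. The other lower members belonged to the lymphotoxin and TNF families or were other cytokines: Lta -3.99, Tnfsf8 -4.05, Tnfsf14 -2.19, Csf2 -3.99 and Il16 -1.22, beside Ltb. The neutrophil chemokine Cxcl2 had 0 counts in all 4 LN libraries and was at least 266-fold higher in lung, against a floor of 3 counts over the group. Ccl9 (2.98) was also higher. Myeloid cells express Cxcl2 and Ccl9 too, and a list of 15 neutrophil genes summed to 0.473 to 127 CPM in LN and 82.1 to 445 CPM in lung. Its part in these values was not tested.

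Of 40 cytokine receptor and signalling genes, 6 were higher and 7 lower, with a median of 0.01 that ranged from -0.22 to 0.21 when a library was left out. The lower count was 2 without LN replicate 4 or lung replicate 3, 3 without lung replicate 4, 4 without LN replicate 1 or 3 and 11 with total-count scaling. The 16-library model gave 0 higher and 3 lower, and the fit without LN replicate 3 and lung replicate 2 together gave 5 and 2. The interleukin 12 receptor chain Il12rb2 was higher by 1.68, and Il7r and Kit were among the lower. Of 19 costimulatory genes of the TNF receptor kind, 2 (10.5%) were higher and 4 (21.1%) lower, against 6.84% and 4.93% of all genes tested. When a library was left out, 1 to 2 were higher and 3 to 4 lower (1 higher without LN replicate 1, 3 or 4 or without lung replicate 1 or 3). Without LN replicate 3 and lung replicate 2 together, 1 was higher and 2 lower. Genes induced by or restraining transforming growth factor beta were higher for 8 of 21 members and lower for 0, with a median of 0.64. They included Cdkn1a (5.88, the largest value of the list), already described above, and the decoy receptor Bambi (3.76). Also higher were the inhibitory SMAD gene Smad7 (1.21) and the SMAD corepressors Skil (1.67) and Tgif1 (3.03). Markers of tissue-resident NK cells and type 1 innate lymphoid cells gave 3 higher and 5 lower of 19 (3 lower without LN replicate 4, and 2 lower in the 16-library model). The higher ones, Rgs1, Rgs2 and Cd69, were also early response genes, and the lower ones included Cxcr6 and Tnfsf10. Itga1, which encodes CD49a and defines resident cells, was at 0, 0, 1.09 and 0.998 CPM in the LN libraries and 0.504, 0, 1.33 and 0 CPM in the lung libraries, too low to be tested. All libraries were made from cells sorted as DX5+, so resident cells without DX5 are not covered by these values.

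Ly49 receptors, which sense MHC class I, gave 1 called gene of 12 (8.33%, against 6.84% higher over all genes tested), Klra1 (0.59, adjusted p = 0.0375). The call was lost in 6 of the 8 fits that left out a library, and 0 members were called without LN replicate 3 and lung replicate 2 together. FVB/N mice carry other Ly49 alleles than the reference genome, so counts can be split among these near-identical genes. Of 32 other NK receptors 5 were higher and 4 lower, with 2 lower without lung replicate 3 and 2 higher with limma-voom. Klrb1b, an inhibitory NKR-P1 receptor, was higher by 1.73. Crtam (-2.67) and Cd160 (-1.86), which bind a nectin-like protein and HVEM respectively, were lower. Transcription factor genes gave 10 higher and 3 lower of 44. The higher ones included Bhlhe40 (2.37), Nfil3 (1.36), which is needed for NK development, and the glucocorticoid receptor gene Nr3c1 (1.18). The lower ones were Tcf7, Lef1 and Tox, but 1 alone was lower without LN replicate 1, 3 or 4 or without lung replicate 2 or 3, and Lef1 and Tox lost their calls in 6 and 7 of the 8 fits that left out a library.

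Type I interferon response genes, which encode antiviral proteins, were lower in lung for 14 of 33 members and higher for 0 (1 at an unadjusted p under 0.05 with edgeR, 0 by DESeq2), with a median of -1.16. Rtp4 was at 51.2, 157, 104 and 58.7 CPM in the LN libraries and 7.36, 5.90, 8.95 and 9.46 CPM in the lung libraries (log2 fold change -3.54 ± 0.38, adjusted p = 0.00018), and Ifit1, which binds viral RNA, was at 11.3, 42.8, 48.0 and 15.6 CPM in the LN libraries and 1.51, 1.41, 0.846 and 3.78 CPM in the lung libraries (log2 fold change -3.94 ± 0.62, adjusted p = 0.0021). Both tissues stayed apart, and LN replicates 2 and 3 held the most of both. Ly6e was lower, at -2.11, Ifit3 at -3.46 and Usp18 at -2.16. Isg15 was not called (0.77, adjusted p = 0.357) except without LN replicate 2, where it was higher. Without LN replicate 3 and lung replicate 2, 7 members were lower and 1, Ifitm3, was higher. Without lung replicate 3 alone 9 were lower, and in the model of all 16 libraries 6 were lower.

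Metabolic lists differed in their share of called genes, which over all genes was 6.84% higher and 4.93% lower. Of 40 nuclear genes of oxidative phosphorylation, edgeR called 0 higher and 0 lower (1 and 2 at an unadjusted p under 0.05, 0 by DESeq2), with a median of -0.07. Of 9 tested mitochondrially encoded genes it called 0 in either direction (0 at an unadjusted p under 0.05, 0 by DESeq2). Of 33 hypoxia and glycolysis genes 5 (15.2%) were higher and 0 lower (5 lower at an unadjusted p under 0.05, 2 by DESeq2). The higher ones included the angiogenic factor Vegfa (3.08). With total-count scaling, 5 were higher and 5 lower, and 3 were higher without LN replicate 3, LN replicate 4 or lung replicate 3. Of 28 cholesterol and lipid genes 3 were higher and 3 lower (10.7% each), with 5 higher without LN replicate 3 and 6 without lung replicate 4. Cytosolic ribosomal protein genes had a median of -0.28, with 65 of 76 below 0 and 1 called lower (Rps7 -0.66, a call lost in 7 of the 8 fits that left out a library). The median was -0.0385 without LN replicate 2 and -0.49 without lung replicate 2, and 7 members were lower with total-count scaling, 8 with the replicate block and 5 without lung replicate 2. Their summed share of counts was 2.63% in LN replicate 2, 1.47 to 1.73% in the other LN libraries and 1.02 to 1.75% in lung, so that the ranges overlapped.

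**Figure D4:**
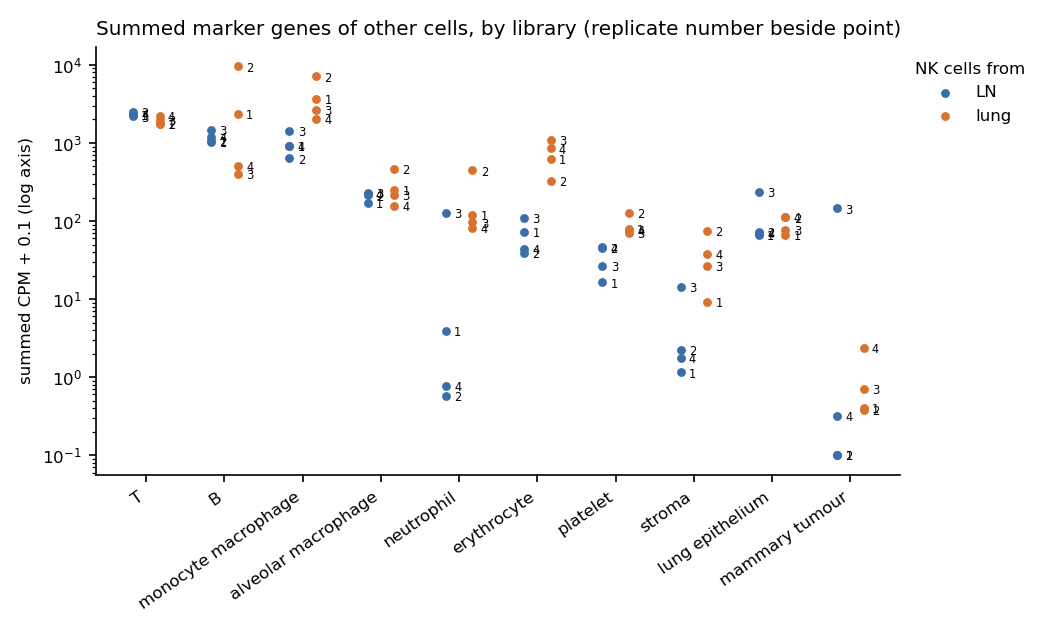
Summed CPM plus 0.1, on a log axis (y), of marker lists of other cell types (x) in each of the 8 PBS libraries, with the replicate number beside each point. The sums of erythrocyte and of monocyte or macrophage genes were higher in all 4 lung libraries than in all 4 LN libraries. Without Nr4a1 and Ccr2, which NK cells use, the monocyte and macrophage sums overlapped (59.3 to 661 CPM in LN, 403 to 5540 CPM in lung). Lung replicate 2 stands above the other lung libraries in the neutrophil list and in the B cell list, which holds antigen presentation genes.

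RNA of other cells differed between the tissues for some marker lists and overlapped for others. Erythrocyte genes summed to 39.2 to 109 CPM in LN and 330 to 1100 CPM in lung, and monocyte and macrophage genes to 632 to 1430 CPM in LN and 2010 to 7110 CPM in lung. Without Nr4a1 and Ccr2 the latter were 59.3 to 661 CPM in LN and 403 to 5540 CPM in lung. The antigen presentation genes Cd74, H2-Aa, H2-Ab1 and H2-Eb1 summed to 248 to 384 CPM in LN, 278 and 362 CPM in lung replicates 3 and 4, 2229 CPM in lung replicate 1 and 9152 CPM in lung replicate 2. The sum of the remaining B cell genes went the other way, at 679 to 1160 CPM in LN and 125 to 400 CPM in lung. Most of it in LN was Ighm, at 450 to 909 CPM there and 92.1 to 178 CPM in lung. Of 15 tested members of the whole B cell list, 2 were called lower and 1 higher. A list of 14 T cell genes summed to 2190 to 2480 CPM in LN and 1750 to 2250 CPM in lung, although CD3+ cells had been gated out. The list holds Cd247 and Lat, which are not confined to T cells, so its sum is not a measure of T cells alone. Cd3e, a chain of CD3, was at 23.1, 29.4, 11.9 and 9.86 CPM in the LN libraries and 2.52, 2.25, 0 and 0.252 CPM in the lung libraries (log2 fold change -3.93 ± 0.89, adjusted p = 0.0151), and Cd3g was at 180.4, 219.6, 223 and 202 CPM in the LN libraries and 28.1, 37.9, 17.3 and 22.2 CPM in the lung libraries (log2 fold change -2.98 ± 0.25, adjusted p = 2.31e-05). Car4, a carbonic anhydrase of lung capillaries and alveolar macrophages, had 0 counts in LN and was at least 67.7-fold higher in lung. Alveolar macrophage genes summed to 170 to 229 CPM in LN and 155 to 462 CPM in lung, with Abcg1, a cholesterol transporter gene, at 168 to 216 CPM of it in LN and 115 to 195 CPM in lung. Without Abcg1 they summed to 2.31 to 12.98 CPM in LN and 40.6 to 267 CPM in lung, and 4 of the 7 tested members were higher and 0 lower, with 6 of the 15 members at 0 counts in LN and 0 in lung. With no filter on low counts, 15 members were tested, of which 5 were higher and 1 lower. Lung epithelial genes summed to 65.8 to 235 CPM in LN and 66.7 to 112 CPM in lung. The part of these cells in the differences above was not tested beyond the counts given without LN replicate 3 and lung replicate 2.

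The same tissues were compared in the 8 libraries of DT-treated mice, which share no library with the PBS comparison. There 225 genes were higher in lung (1.77% of 12686 tested) and 97 lower (0.765%). Of the 793 genes that were higher in PBS mice and tested in both, 757 (95.5%) had the same sign in DT mice, and 164 were called there, which is 20.7% of the 793. Of 585 lower genes, 561 (95.9%) had the same sign and 40 (6.84%) were called. Over all 11740 genes tested in both, 72.1% had the same sign, and 0 of the genes called in PBS mice were called in the opposite direction. Both comparisons carry the same difference in preparation between lung and LN.

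Early response genes also differed widely between the tissues in DT mice, with Nr4a2 at 6.34, Nr4a1 at 5.07, Dusp1 at 5.55, Fos at 5.65 and Cdkn1a at 5.29 on the log2 scale, and a median of 2.84 for the immediate early list. Among genes of less mature cells, Ltb was at -3.34 and Tcf7 at -2.21, with a list median of -1.45. Mature and cytotoxic genes had smaller values in DT mice. Klrg1 was at 1.29 (adjusted p = 0.117), Gzmb at 0.11 (adjusted p = 0.946), Gzma at -0.13 and Prf1 at 0.00, with list medians of 0.53 for mature and 0.14 for cytotoxic genes. The median of the interferon list was -0.36. The difference between the tissue differences, tested in all 16 libraries, did not pass for Klrg1 (adjusted p = 0.88), Gzmb (adjusted p = 0.583) or S1pr1 (adjusted p = 0.839). Over 13940 genes it gave 0 higher and 1 lower gene (0.00717%) with edgeR (185 and 401 at an unadjusted p under 0.05, 1 and 18 with DESeq2, 0 and 2 with limma-voom). Of the 8 DT libraries, 6 held a larger share of mitochondrially encoded counts (2.11 to 4.43%) than any PBS library (at most 1.76%), and the part of this in the values from DT mice was not tested.

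**Figure D5:**
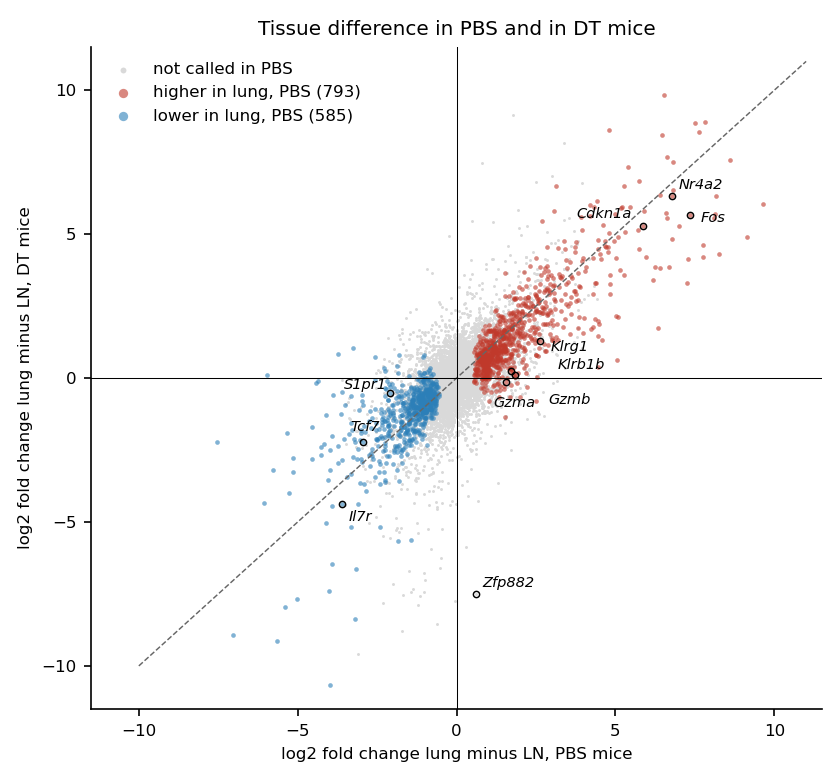
Log2 fold change of lung over LN in PBS mice (x axis) against that in DT mice (y axis) for genes tested in both comparisons, with genes called in PBS mice in colour. Of the 793 higher genes 757 lie above 0 in DT mice, and of the 585 lower genes 561 lie below 0.

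The gene that passed was Zfp882, a zinc finger gene, which was at 18.4, 12.4, 8.86 and 4.10 CPM in the LN libraries and 12.3, 7.59, 16.7 and 30.4 CPM in the lung libraries. In DT mice it was at 15.4 ± 5.18 CPM in LN (SD, n = 4), and in lung 1 library held 2 counts and the other 3 held 0. The interaction was -8.10 ± 1.14 on the log2 scale (edgeR quasi-likelihood test, adjusted p = 0.0215), a fitted value that depends on the prior count where libraries are at 0. The call was lost in 9 of the 16 fits that left out a library.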

How the data were processed

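RNA from sorted NK cells was sequenced in 16 libraries, of which the 8 from PBS mice (4 LN, 4 lung) make up the comparison. The authors deposited 1 table of whole-number read counts for 49671 genes, aligned with HISAT2 and counted with HTSeq on GRCm38, per the submitters' processing notes; no version, filter or strand setting is named in these sources, so antisense and overlapping genes cannot be told apart. No column of the table was left unused across the comparisons. Total counts per library were 3929560 to 10744934, and their number limits the precision of low genes.

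Counts were tested in R 4.3.3 with edgeR 4.0.16 (TMM scaling, filterByExpr with a minimum count of 10 and total of 15, robust quasi-likelihood fit with 6 residual degrees of freedom, Benjamini-Hochberg adjustment over 12113 genes, calls at 0.05). P-values treat each library as 1 animal, as the design text states biological replicates. CPM values use TMM-scaled library sizes; folds are log2, lung minus LN. Floors are 3 counts over a group and, like intervals, cover counting error only. The tissue difference in DT mice and the interaction were fitted the same way; the separate DT fit was added after the PBS values had been seen. Alternatives were other scalings and filters, DESeq2 1.42.0, limma-voom 3.58.1, a replicate block, leaving out each library, all 16 libraries, and, added after the data had been seen, leaving out LN replicate 3 and lung replicate 2. The code was tested on simulated data.

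The groups and gene lists were chosen with earlier results of these data known, and the cyclic AMP, GIMAP and glucocorticoid lists after the values here. Named genes were the 15 of smallest p in each direction among called genes of at least 10 CPM without overlap (excluding predicted genes, pseudogenes, receptor segments and other-cell markers), the 3 of smallest p in each NK list, a fixed set, and up to 3 called markers of each other cell type; other list members named were chosen after their values were seen. Motifs were searched in 250 bases before the gene start in RefSeq (GRCm38.p6), matched by symbol. Figures were drawn with matplotlib 3.10.9.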

Additional observations from a re-analysis of the deposited data

Results flagged for a closer look

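Single libraries that lay far from the other 3 of their group were listed with Dixon's test at the 95% level. It marked 42 of the 360 groups of 4 libraries looked at, and the groups share libraries and genes. The usual rate of about 1 in 20 holds for continuous, normally distributed values. A group with 3 libraries at 0 and a few counts in the other is always marked, as for Inmt, Hbb-bt, Il1b, Pf4 and Calca in LN. The number marked can therefore not be set against that rate.

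LN replicate 3 accounted for many of them. Its summed marker genes were 145.1 CPM for mammary epithelium and tumour (0 to 0.2217 CPM in the other LN libraries), 126.9 CPM for neutrophils (0.4729 to 3.776), 234.8 CPM for lung epithelium, a list with genes shared by other epithelia (65.77 to 72.11), 317.6 CPM for plasma cells (241.4 to 249.5) and 14.19 CPM for stroma (1.049 to 2.128). Single genes that stood high there were Hbb-bs at 12.38 CPM, Hba-a1 at 12.38 CPM and Hbb-bt at 0.364 CPM (globin chains), Cd14 at 12.38 CPM, Il1b at 0.9706 CPM, S100a8 at 5.338 CPM and Chil3 at 2.184 CPM (myeloid genes), Pf4 at 1.092 CPM (platelets) and Ifitm3 at 9.585 CPM.

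LN replicate 2 was high in Ly6e at 715.3 CPM and Isg15 at 36.88 CPM, both interferon-induced, in mt-Nd2 at 520.9 CPM, Hspa1a at 2.01 CPM, Smad7 at 58.28 CPM and Inmt at 0.1182 CPM, and low in Ncr1 at 5196 CPM, Lef1 at 67.03 CPM and H2-Eb1 at 4.019 CPM. LN replicate 1 was high in Serpinb9 at 1356 CPM, Fasl at 563.2 CPM, Dusp1 at 61.16 CPM and Calca at 1.678 CPM. LN replicate 4 was high in Cd36 at 1.552 CPM and low in Parp16 at 3.99 CPM.

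Among lung libraries, replicate 2 was high in summed neutrophil genes at 444.5 CPM (82.09 to 118.4 in the others) and platelet genes at 127.0 CPM, in H2-Eb1 at 97.78 CPM, Pf4 at 43.27 CPM, Ifitm3 at 66.59 CPM, Pde3b at 173.1 CPM and Crtc3 at 49.17 CPM, and in the share of the 50 most abundant genes at 21.4%, and was low in Dnajb9 at 235.7 CPM. Lung replicate 1 was high in Sgk1 at 2054 CPM and low in mt-Atp6 at 1.612 CPM. Lung replicate 4 was low in Irf8 at 2416 CPM and high in summed mammary genes at 2.27 CPM.

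The tissue difference of Zfp882 differed between DT and PBS mice, with an interaction of -8.096 on the log2 scale (edgeR quasi-likelihood test over 16 libraries, adjusted p = 0.0215).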

How the results depend on the processing

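The PBS comparison called 828 genes higher and 597 lower. With total-count scaling there were 617 and 1151, of which 617 and 597 were shared with the main calls; with all 16 libraries 377 and 126 (334 and 121 shared); and without LN replicate 3 and lung replicate 2 together, an alternative added after the data had been seen, 545 and 265 (485 and 242 shared). Leaving out 1 library gave 549 to 771 higher and 301 to 535 lower genes, with the lowest counts without LN replicate 4 and lung replicate 3. Median-ratio scaling, both filters, DESeq2 (1221 and 877), limma-voom and the non-robust fit stayed within 1.5 times. The interaction's 0 higher and 1 lower genes became 1 and 18 with DESeq2 and 0 and 2 with limma-voom, and leaving out 1 library gave 0 to 3 lower. The cause of these changes was not tested, beyond the fewer libraries in some fits. With a replicate block, the PBS counts were 857 and 619 and the interaction counts 0 and 0. The numbers were not taken as pairs because the labels do not tie a lung library to an LN library of the same mouse. Same-numbered LN and lung libraries correlated at -0.0226, 0.236, -0.00924 and -0.00103 in their deviations, which cannot decide whether they share a mouse. Over all named genes and alternatives, 2669 values kept sign and call, 158 lost and 25 gained the call, and 5 changed sign, none of them called: Eomes (main value -0.05) at 0.0519, 0.001852 and 0.0601 without LN replicate 2, lung replicate 3 and lung replicate 4 (range -0.2419 to 0.0601 over the libraries left out), and Xist (main value -0.09) at 0.1718 and 0.05703 without LN replicate 2 and lung replicate 1 (range -0.2849 to 0.1718). Genes of low counts are limited by depth.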

Other observations

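Genes of the GIMAP family, small GTPases of lymphocytes, were lower in lung for 3 of 8 tested members and higher for 0 (6 and 1 at an unadjusted p under 0.05 with edgeR, 5 and 0 by DESeq2), a list put together after the values had been seen. Globin RNA was far higher in the lung libraries, where Hbb-bt was 394-fold higher over the group (counting interval 134 to 1912), although red cells had been lysed in that tissue. All LN counts of Hbb-bt were in LN replicate 3 (0.364 CPM, against 0 in the other LN libraries). Inmt, a methyltransferase gene abundant in whole lung, had 1 count in LN and a ratio of lung to LN of 432 (counting interval 77.1 to 17120), and Treml4, a receptor of monocytes and dendritic cells, had 0 counts in LN and was at least 70.1-fold higher. Near-identical globin genes can share reads.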
